A study of Chlorella sorokiniana with 6 samples.

Results

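The transcripts g1832 and g1833 of the green alga *Chlorella sorokiniana*, both annotated as phosphoenolpyruvate carboxykinase (PEPCK), were higher in each of 3 mixotrophic cultures than in any of 3 normal ones. They are 2 of the 18310 transcripts in the count table, and they were chosen by their annotation and by the difference between the conditions that earlier results of these data had shown. That difference is therefore given as a description, without a test. The table holds 10 transcripts annotated as PEPCK, and the other 8 are described beside these members.

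PEPCK converts oxaloacetate to phosphoenolpyruvate with release of carbon dioxide, at the cost of a nucleoside triphosphate. The reaction opens gluconeogenesis, the route from organic acids to sugars, and in plants and algae it follows on the glyoxylate cycle, which makes organic acids from acetyl units of fatty acids or acetate. Other enzymes act on the same compounds. PEP carboxylase (PEPC) makes oxaloacetate from phosphoenolpyruvate, pyruvate kinase turns phosphoenolpyruvate into pyruvate, and pyruvate phosphate dikinase (PPDK) makes phosphoenolpyruvate from pyruvate.

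*C. sorokiniana* is a unicellular alga, and by the labels RNA was sequenced from 3 normal and 3 mixotrophic cultures. Normal cultures stood in Bold's Basal Medium at 10 µmol photons of continuous light without added glucose. Mixotrophic cultures stood in the same medium at 100 µmol photons with 2% glucose, so light and glucose changed together and their parts cannot be told apart. Both were harvested after 7 days in the condition. The labels give each library a strain number of its own, NIES-2168 to NIES-2170 for the normal and NIES-2171 to NIES-2173 for the mixotrophic libraries, whereas the study's methods name a single strain. If the labels are right, strain and condition cannot be told apart either.

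Libraries held 2535461 to 4444858 counted reads. Normal replicate 1 stood apart from the other normal libraries, with a root mean square difference of 1.40 and 1.29 in log2 level per transcript, against 0.361 between normal replicates 2 and 3 and 0.984 to 1.01 between conditions among replicates 2 and 3. Mixotrophic replicate 1 differed by 0.905 and 1.02 from mixotrophic replicates 2 and 3, which differed by 0.287 from each other. From normal replicate 1 it differed by 0.906. Replicate 1 of both conditions was also low in the 45 transcripts assigned to phenylpropanoid metabolism, a pathway known best from land plants, at a sum of 311 and 607 CPM (reads scaled to equal library totals) against 1175 to 1556 CPM in the other libraries. The part of these differences in the results was not tested. Results are given over all 6 libraries, and over replicates 2 and 3 of each condition (4 libraries) where that changes them. A transcript is said to have risen or fallen at an adjusted p under 0.05 in edgeR's two-sided quasi-likelihood test, with Benjamini-Hochberg adjustment over the 12318 transcripts tested. By this rule 13.3% of those tested were higher with mixotrophy and 15.2% lower, against 28.6% and 29% over the 4 libraries. With the replicate number as a block, the shares over all 6 were 9.97% and 10.5%. Calls over all transcripts depend on the libraries used, with 1633 higher and 1874 lower over all 6 and 3476 and 3527 without normal replicate 1. They were 1063 and 1237 without normal replicate 2, 977 and 1090 without normal replicate 3, and 641 to 673 and 668 to 730 without a mixotrophic replicate. With counts summed per component they were 1129 and 1316, and the tested transcripts came from 7657 components. The counts of the lists are to be read against these.

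For g1832, the normal replicates 1 to 3 contained 493, 255 and 321 reads and the mixotrophic replicates 3283, 2873 and 2585. Scaled to CPM, these were 136, 106 and 105 in normal and 709, 707 and 726 in mixotrophic libraries. All mixotrophic libraries lay far above all normal ones, and the mixotrophic values differed little among themselves. The mean went from 116 ± 17.5 to 714 ± 10.5 CPM (SD, n = 3 each), a 6.15-fold higher level. The log2 fold change fitted by edgeR was 2.62 with a standard error (SE) of 0.13.

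The sister transcript g1833 had more reads in every library, with 785, 401 and 501 in normal replicates and 4795, 4112 and 3890 in mixotrophic ones. Its levels were 217, 167 and 165 CPM in normal and 1035, 1012 and 1093 CPM in mixotrophic libraries. Again the groups did not overlap, and normal replicate 1 was the highest of the normal libraries for both transcripts, by 0.24 and 0.26 on the log2 scale above the mean of its group. The mean of g1833 went from 183 ± 29.5 to 1047 ± 41.5 CPM (SD, n = 3 each), 5.72-fold higher. Its fitted log2 fold change was 2.52 with a standard error of 0.14. CPM is not corrected for length, and lengths were not analysed here, so the order of the levels of g1833 and g1832 is one of reads and not of molecules.

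**Figure D1:**
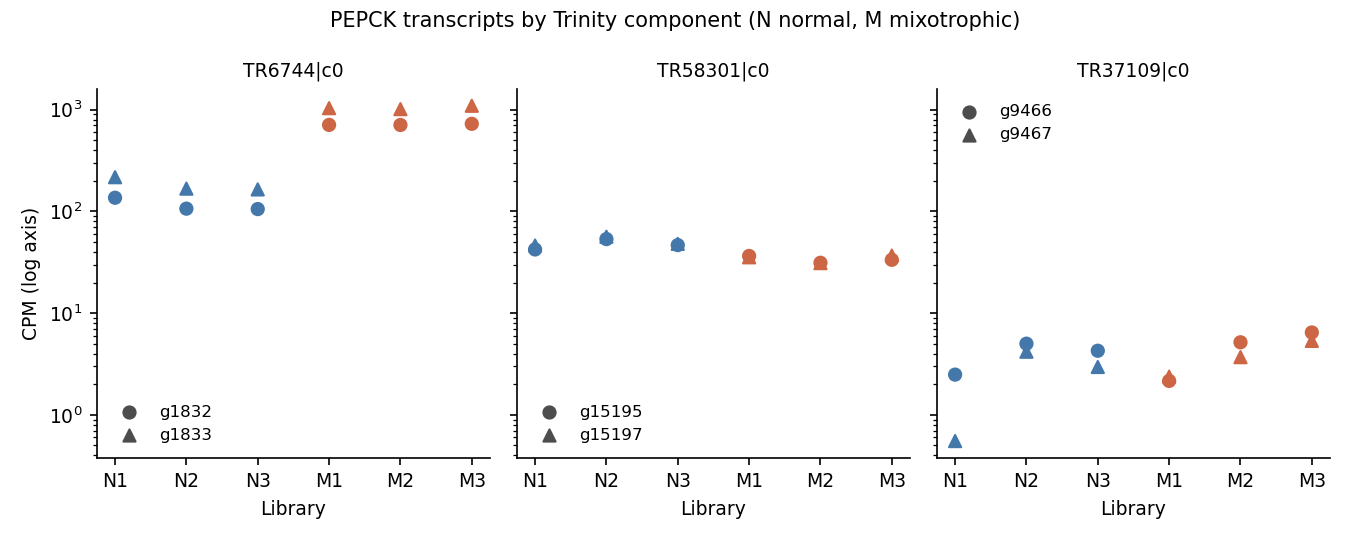
Level of the 6 tested PEPCK transcripts in CPM (log axis) in each normal (N1 to N3, blue) and mixotrophic (M1 to M3, orange) library, with a panel for each Trinity component and a symbol for each transcript. g1832 and g1833 lie between 105 and 217 CPM in normal and between 707 and 1093 CPM in mixotrophic libraries, whereas the other transcripts reach at most 56.4 CPM.

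Together, both transcripts took 353, 274 and 270 CPM in normal and 1744, 1720 and 1819 CPM in mixotrophic libraries. As shares of all counted reads, without the TMM scaling that CPM uses, they held 0.0359%, 0.0259% and 0.0259% against 0.182%, 0.175% and 0.184%. The mean of the sum went from 299 ± 47.0 to 1761 ± 51.9 CPM (SD, n = 3 each), 5.89-fold higher, and the lowest mixotrophic library held 4.87 times the highest normal one. Among all tested transcripts, 82 (0.666%) had a larger log2 fold change than g1832 and 86 (0.698%) a larger one than g1833, while the median over all was -0.04. Groups that did not overlap were common by themselves, with 24.4% of tested transcripts higher and 24.2% lower in every mixotrophic than in every normal library. Over the 4 libraries the log2 fold changes were 2.74 for g1832 and 2.64 for g1833, and with the replicate block 2.63 and 2.53. Leaving out any single library moved them within 2.56 to 2.72 and 2.44 to 2.62. As CPM is a share of the RNA sequenced, more PEPCK RNA per cell and less of other RNA cannot be told apart.

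Both transcripts come from a single Trinity component, TR6744|c0. Trinity puts contigs that share sequence into a component and numbers the genes and isoforms within it. g1832 is isoform 1 and g1833 isoform 2 of the same assembled gene, and the component holds no further transcript. They are thus not independent observations. Reads that match both isoforms equally may have been assigned to either or left uncounted, which the counts do not show, so the level of each alone is uncertain and the sum is the firmer measure.

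The division of reads between the isoforms was close to the same in all libraries, beside the difference in level. g1832 held 38.6% (95% Wilson interval 35.9 to 41.3), 38.9% (35.2 to 42.7) and 39.1% (35.8 to 42.4) of the reads of both in normal replicates 1 to 3. In mixotrophic replicates 1 to 3 the share was 40.6% (39.6 to 41.7), 41.1% (40.0 to 42.3) and 39.9% (38.7 to 41.1). The 3 mixotrophic shares were higher than the 3 normal ones, but the intervals of the conditions overlap, and they cover counting error only. The means were 38.8 ± 0.240% and 40.6 ± 0.608% (SD, n = 3 each), a difference of 1.73 percentage points. For comparison, 718 components with exactly 2 tested transcripts, TR6744|c0 among them, held at least 200 reads of the pair in every library. The median difference of mean shares over these was 1.43 points, with an interquartile range of 0.640 to 2.67, and 58.2% of them had a smaller difference than g1832 and g1833. The range of shares over all 6 libraries was 2.56 points for the PEPCK isoforms, against a median of 4.89, and 10.9% of the pairs had a narrower one. Counting error alone widens this range in pairs with fewer reads. g1832 and g1833 together held 656 to 8078 reads per library and the pairs were not matched in depth, so the comparison does not show an unusually stable division.

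**Figure D2:**
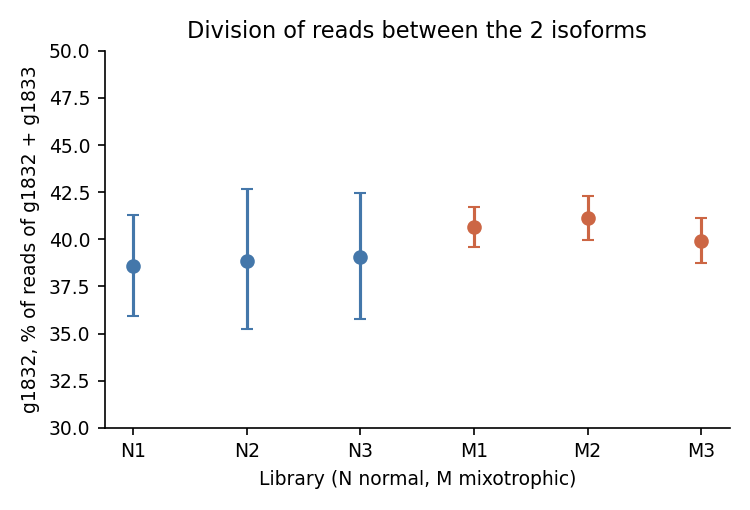
Share of g1832 among the reads of g1832 and g1833 (%), per library, with 95% Wilson intervals for counting error as bars (the axis does not start at 0). The shares lie between 38.6% and 41.1%, and the wider intervals of the normal libraries follow from their fewer reads.

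Of the other 8 PEPCK transcripts only 4 were tested, and none of those was called higher in mixotrophic cultures. With 13.3% of all transcripts tested called higher, none among so few says little. The other 8 fall into 2 further components, TR58301|c0 with 6 transcripts and TR37109|c0 with 2. In the first, g15195 held 42.3, 53.4 and 46.6 CPM in normal and 36.5, 31.3 and 33.4 CPM in mixotrophic libraries. Its isoform g15197 held 46.2, 56.4 and 48.0 CPM and 35.4, 31.0 and 36.8 CPM in turn. Each was lower in every mixotrophic library than in every normal one, opposite in direction to g1832 and g1833. The mean of g15195 went from 47.5 ± 5.62 to 33.7 ± 2.62 CPM (log2 fold change -0.49, SE 0.14, adjusted p = 0.0438 by edgeR). That of g15197 went from 50.2 ± 5.45 to 34.4 ± 3.02 CPM (log2 fold change -0.54, SE 0.14, adjusted p = 0.0316 by edgeR). g15195 also did not pass with RLE or upper quartile scaling, with at least 10 counts in every library or in DESeq2 (adjusted p = 0.0512, 0.0564 and 0.0502 by edgeR and 0.0547 by DESeq2). With the replicate block neither passed (edgeR adjusted p = 0.122 and 0.0962). Without normal replicate 2 or 3, or without any mixotrophic replicate, the edgeR adjusted p lay between 0.103 and 0.156 for g15195 and between 0.0738 and 0.122 for g15197, whereas over the 4 libraries it was 0.00027 and 0.000319.

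Of the remaining transcripts of TR58301|c0, g15196 had 1, 0 and 0 reads in normal and 2, 2 and 3 in mixotrophic libraries, too few to be tested. g15198, g15199 and g15200 had no read in any library, which allows up to 0.648 to 1.25 CPM per library (3 reads, counting error only). In TR37109|c0 the levels were low in both conditions. g9466 had 9, 12 and 13 reads in normal and 10, 21 and 23 in mixotrophic libraries, or 3.92 ± 1.30 and 4.60 ± 2.21 CPM (log2 fold change 0.23, SE 0.52, adjusted p = 0.811 by edgeR). g9467 had 2, 10 and 9 reads and 11, 15 and 19 reads, or 2.56 ± 1.84 and 3.80 ± 1.48 CPM (log2 fold change 0.59, SE 0.72, adjusted p = 0.606 by edgeR). The conditions overlapped for both, and neither difference was larger than the spread between replicates.

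By component, the PEPCK reads came mainly from TR6744|c0 in either condition. Its share of all PEPCK CPM was 79.4%, 69.7% and 72.6% in normal and 95.8%, 96.0% and 95.6% in mixotrophic libraries. TR58301|c0 supplied 19.9%, 27.9% and 25.4% in normal and 3.97%, 3.50% and 3.74% in mixotrophic libraries. Its summed level was 88.7, 110 and 94.6 CPM and then 72.3, 62.8 and 71.1 CPM, a fold of 0.703 between the means of 97.7 ± 10.9 and 68.7 ± 5.18 CPM (SD, n = 3 each). TR37109|c0 made up 2.34% or less of the PEPCK CPM in every library.

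All 10 transcripts were placed in the MapMan category (BIN) for PEPCK under gluconeogenesis, and their descriptions name the same *Chlamydomonas reinhardtii* protein, though with unequal match scores. The score, whose unit is not stated in the table, was 807 for g1832 and 805 for g1833, 640 for all 6 transcripts of TR58301|c0 and 178 for both of TR37109|c0. Against *Arabidopsis* proteins the scores were 749 (g1832) and 738 (g1833), both to PCK2, and 626 in TR58301|c0. g9466 and g9467 had 319, to PCK1, and so scored higher against *Arabidopsis* than against the alga *Chlamydomonas*, the reverse of the other 8. Their domain match was to an N-terminal region of the enzyme (score 90.9), against 497 for the domain of g1832 and g1833. Whether the 3 components are 3 genes of *C. sorokiniana* was not tested.

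Among the other gluconeogenesis and glyoxylate cycle transcripts, a majority of those tested rose. The BIN holds 28 transcripts besides these members, of which 9 had no read and 17, from 8 components, were tested. 9 were higher (52.9%, against 13.3% of all transcripts tested) and 4 lower (23.5%, against 15.2%), and the median log2 fold change was 0.96 against -0.04 over all. The 4 lower ones were the PEPCK transcripts g15195 and g15197 and a pair from the unnamed part of the BIN. Over the 4 libraries 9 were higher and 6 lower, and with the replicate block 9 and 1. Summed per component, 4 were higher and 3 lower (1129 and 1316 over all). Without mixotrophic replicate 1 or 3 none was lower by edgeR. The lower count was 1 without normal replicate 2 or 3 (1237 and 1090 over all transcripts) and 2 without mixotrophic replicate 2.

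Isocitrate lyase, the first enzyme particular to the glyoxylate cycle, has 1 transcript, g6993, with 246 ± 67.2 CPM in normal and 966 ± 24.7 CPM in mixotrophic cultures (log2 fold change 1.97, SE 0.22, adjusted p = 0.00276 by edgeR). Malate synthase, the second, has 4 transcripts of 1 component. g6258 rose from 58.0 ± 11.9 to 212 ± 9.80 CPM (log2 fold change 1.87, edgeR adjusted p = 0.00169) and g6259 from 81.5 ± 9.51 to 197 ± 7.49 CPM (1.27, edgeR adjusted p = 0.00195). g6256 and g6257 did not pass over all 6 (log2 fold changes -0.14 and -0.31, edgeR adjusted p = 0.826 and 0.559) and were lower without normal replicate 1 (-0.48 and -0.66, edgeR adjusted p = 0.0003 and 6.34e-05), which held 107 and 109 CPM of them against means of 205 and 213 CPM. The fitted values of this component's isoforms thus spread from -0.31 to 1.87 over all 6 libraries, whereas those of g1832 and g1833 were 2.62 and 2.52. Near values were not particular to g1832 and g1833. In the BIN's other components with more than 1 tested transcript, the closest were -0.49 and -0.54 for g15195 and g15197. The furthest apart were 0.23 and 0.59 for g9466 and g9467.

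The malate dehydrogenase transcripts of the BIN, annotated as glyoxysomal, had log2 fold changes of a size near those of g1832 and g1833 at a much lower level of reads. g3766 went from 3.59 ± 0.505 to 25.4 ± 2.54 CPM (log2 fold change 2.82, SE 0.19, adjusted p = 0.00081 by edgeR), and g3767 from 4.30 ± 0.982 to 23.9 ± 4.23 CPM (2.48, SE 0.25, adjusted p = 0.00213 by edgeR). g3766 was the only one of the 17 with a larger log2 fold change than g1833. The citrate synthase transcripts g17422 and g17426, annotated as peroxisomal, rose by 1.09 and 0.96 on the log2 scale (edgeR adjusted p = 0.00968 and 0.00846), and did not pass without mixotrophic replicate 2 (0.0604 and 0.0565 by edgeR). The PPDK transcripts g6931 and g6933 rose from 423 ± 153 to 1144 ± 17.8 CPM and from 426 ± 154 to 1027 ± 18.9 CPM (log2 fold changes 1.44 and 1.27, edgeR adjusted p = 0.0104 and 0.0151). Normal replicate 1 was the highest normal library for both, at 598 and 603 CPM. g6931 did not pass without mixotrophic replicate 3 (edgeR adjusted p = 0.0502), nor g6933 without normal replicate 2 or any mixotrophic replicate (0.0515 to 0.0639 by edgeR). g10307 and g10308, described as AMP-dependent synthetase or ligase, fell to 21.6 ± 1.59 and 14.9 ± 3.13 CPM (log2 fold changes -0.70 and -0.84, edgeR adjusted p = 0.0122 and 0.0264). With the replicate block g10307 had adjusted p = 0.0528 in edgeR, and without mixotrophic replicate 1 or 3 neither of the pair passed (0.0658 and 0.0680 for g10307, 0.101 and 0.104 for g10308, by edgeR). g10308 also did not pass without normal replicate 2 or 3 (edgeR adjusted p = 0.0777 and 0.0579).

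**Figure D3:**
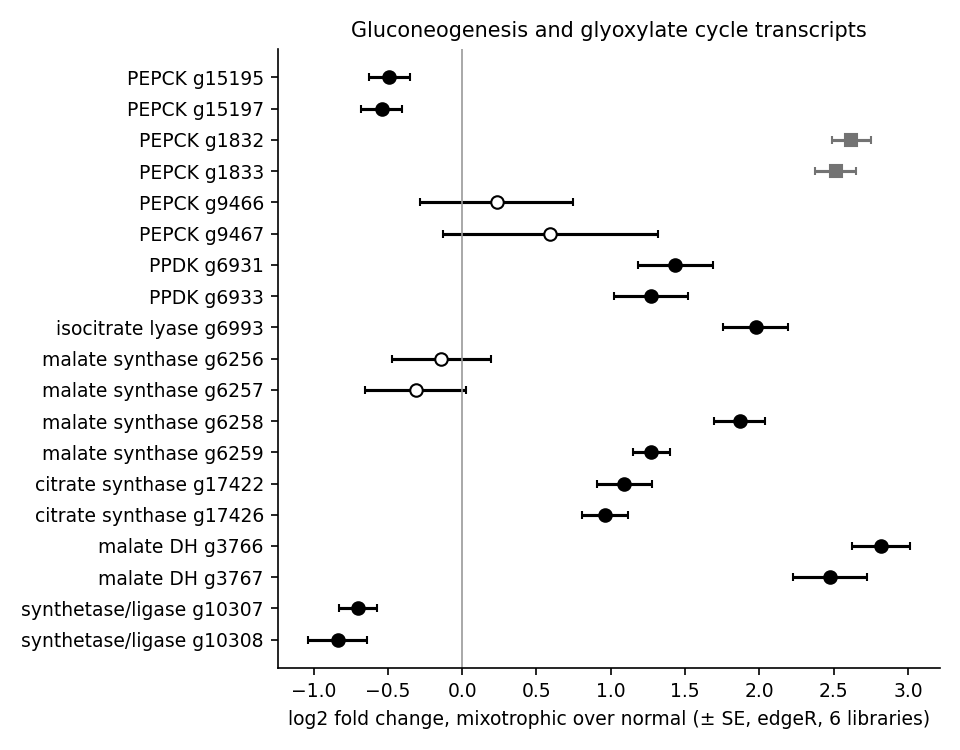
Log2 fold change of mixotrophic over normal, with its standard error as bars, for the tested transcripts of the gluconeogenesis and glyoxylate cycle BIN (edgeR, 6 libraries). Filled circles passed an adjusted p under 0.05, open circles did not, and grey squares are g1832 and g1833, shown without a test; g3766 at 2.82 is the only transcript to the right of g1832 at 2.62.

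The enzymes that compete with or complement PEPCK for phosphoenolpyruvate, pyruvate and oxaloacetate moved less in sum. This group of PEPC, pyruvate kinase, PPDK, malic enzyme and malate dehydrogenase had 29 tested transcripts, of which 8 were higher (27.6%, against 13.3% of all) and 5 lower (17.2%, against 15.2%). The lists overlap, so these counts are not separate from the others. Of the higher ones, g3766, g3767, g6931 and g6933 are also counted in the gluconeogenesis list and g10248 in glycolysis. Of the lower ones, g11329, g11330, g68 and g69 are also counted in glycolysis. Their median log2 fold change was 0.43. Without normal replicate 1 the counts were 20 and 6 (3476 and 3527 over all transcripts), and without mixotrophic replicates 1, 2 and 3 they were 5, 6 and 3 higher and 2, 2 and 3 lower (641 to 673 and 668 to 730 over all). Summed per component, 5 were higher and 4 lower (1129 and 1316 over all), the tested transcripts coming from 18 components. The counts did not change with the replicate block.

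PEPC, which runs opposite to PEPCK between phosphoenolpyruvate and oxaloacetate, summed to 1004, 1847 and 1718 CPM in normal and 1477, 1435 and 1519 CPM in mixotrophic libraries. Normal replicate 1 was the lowest and the conditions overlapped. Of its 4 transcripts, g11329 and g11330 fell (log2 fold changes -0.72 and -0.76, SE 0.12 and 0.13, adjusted p = 0.00934 and 0.0106 by edgeR), from 251 ± 30.9 and 258 ± 36.0 CPM to 152 ± 3.31 and 152 ± 8.97 CPM. Neither passed without mixotrophic replicate 1 or 2 (edgeR adjusted p 0.0561 to 0.0641), nor g11329 without mixotrophic replicate 3 (0.0557, edgeR).

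Pyruvate kinase summed to 1635, 1033 and 965 CPM in normal and 1083, 1054 and 1099 CPM in mixotrophic libraries. Of 11 transcripts, g69 and g68, from 1 component, fell from 243 ± 78.8 to 39.4 ± 3.25 CPM and from 297 ± 101 to 126 ± 1.32 CPM (log2 fold changes -2.62 and -1.24, edgeR adjusted p = 0.00189 and 0.0148), and g10248 rose by 0.71 on the log2 scale (edgeR adjusted p = 0.0115). g68 did not pass without any one mixotrophic replicate (edgeR adjusted p = 0.0576 to 0.0697), nor g10248 without mixotrophic replicate 1 or 3 (0.0583 and 0.0590, edgeR).

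PPDK, the other route to phosphoenolpyruvate, summed to 1200, 706 and 639 CPM in normal and 2163, 2139 and 2211 CPM in mixotrophic libraries, with no overlap. Malic enzyme, which releases carbon dioxide from malate to give pyruvate, had 376, 355 and 336 CPM and then 463, 462 and 458 CPM. 3 of its 7 transcripts rose, among them g14999 and g15000 (log2 fold changes 0.79 and 0.75, edgeR adjusted p = 0.0044 and 0.00828), the latter not without mixotrophic replicate 3 (0.0513, edgeR). Malate dehydrogenase, which supplies oxaloacetate, summed to 1072, 2432 and 2265 CPM and 1972, 2076 and 2099 CPM, so that the conditions overlapped. Its transcript g12101, described as the NADP-dependent form of the chloroplast but placed in the BIN of the cytosolic enzyme, fell from 796 ± 215 to 237 ± 9.97 CPM (log2 fold change -1.74, SE 0.22, adjusted p = 0.00382 by edgeR), while g3766 and g3767 rose, as given for the glyoxylate cycle.

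Set against these enzymes within a library, g1832 and g1833 were far below PEPC and pyruvate kinase in read share in normal libraries and above them in mixotrophic ones. The log2 ratio of their sum to PEPC was -1.51, -2.75 and -2.67 in normal and 0.24, 0.26 and 0.26 in mixotrophic libraries. To pyruvate kinase it was -2.21, -1.91 and -1.84 and then 0.69, 0.71 and 0.73. To PPDK, which also rose, it was -1.76, -1.37 and -1.24 and then -0.31, -0.31 and -0.28. The mean ratios differed between the conditions by 2.56, 2.69 and 1.16 in turn. All 3 ratios were higher in every mixotrophic library than in every normal one, and the normal libraries varied more, with an SD of 0.70 for the ratio to PEPC against 0.012 in mixotrophic ones. The sums are of reads and not corrected for length, so only the change in a ratio compares between conditions. The members were chosen on the same contrast, and no test was made.

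**Figure D4:**
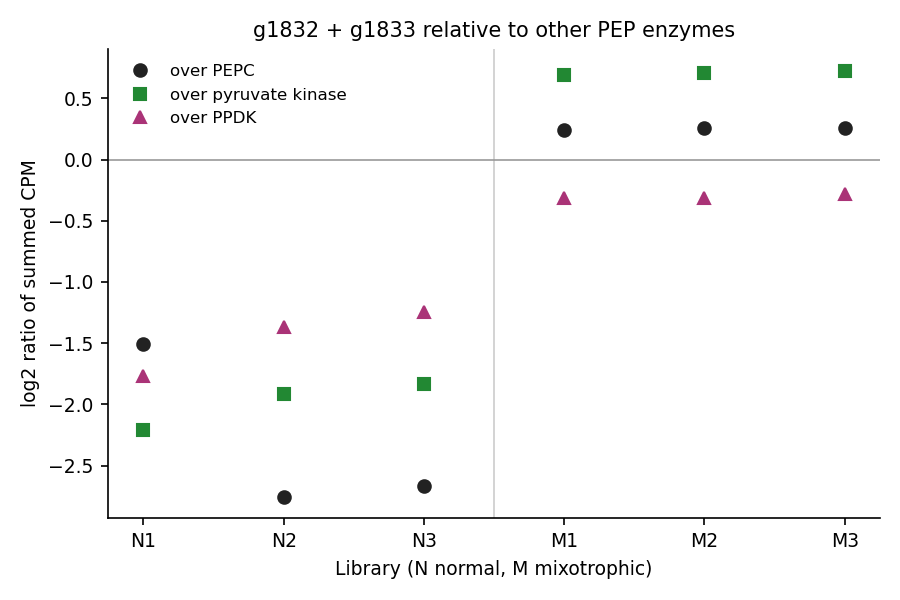
Log2 ratio of the summed CPM of g1832 and g1833 to that of PEPC (circles), pyruvate kinase (squares) and PPDK (triangles), per library. The ratios lie between -2.75 and -1.24 in normal and between -0.31 and 0.73 in mixotrophic libraries.

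Of glycolysis transcripts, whose enzymes mostly work the same steps as gluconeogenesis in the opposite sense, more fell than rose. The BIN has 105 transcripts, of which 36 had no read and 63 were tested. 4 were higher (6.35%, against 13.3% of all) and 18 lower (28.6%, against 15.2%), with a median log2 fold change of 0.10, above 0 although more fell than rose. None had a log2 fold change as large as those of g1832 and g1833, the largest being 1.29 for the glyceraldehyde 3-phosphate dehydrogenase g1136 (from 40.0 ± 2.01 to 98.4 ± 5.24 CPM, edgeR adjusted p = 0.00135). Of the phosphoglycerate mutase transcripts, g15159 rose by 0.71 on the log2 scale and g15160 was at -2.22 (edgeR adjusted p = 0.00662 and 0.00158), and 1 of 16 tested in the cytosolic class was higher and 8 lower, with both tested of the dually targeted class lower. g15159 and g15160 come from the same component. Their means were 273 and 34.6 CPM in normal and 447 and 7.42 CPM in mixotrophic libraries. Of 8 tested plastid phosphofructokinase transcripts, 4 fell, all from 1 component, among them g13384 (log2 fold change -2.08, edgeR adjusted p = 0.00142). A transcript of another component, g10398, named here after its values were seen, rose from 125 ± 14.5 to 186 ± 10.5 CPM (log2 fold change 0.58, edgeR adjusted p = 0.0195, and 0.0564 with the replicate block). Summed per component, 4 were higher and 9 lower (1129 and 1316 over all), the tested transcripts coming from 33 components. Without normal replicate 1, 21 were higher and 26 lower, where calls over all transcripts also increased (to 3476 and 3527). Without a mixotrophic replicate 2 to 3 were higher and 8 to 9 lower, by edgeR. Without normal replicate 2 or 3 the counts were 3 and 11 (1063 and 1237, and 977 and 1090, over all transcripts).

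In the TCA cycle, of which oxaloacetate is an intermediate, 17 of 31 tested transcripts were higher (54.8%, against 13.3% of all) and none lower (against 15.2%), with a median log2 fold change of 0.62. Summed per component, 10 were higher and none lower (1129 and 1316 over all), the tested transcripts coming from 24 components. 1 was lower at an unadjusted p under 0.05 in edgeR and also at an adjusted p under 0.05 in DESeq2, namely the citrate synthase g18191 (log2 fold change -0.55, edgeR adjusted p = 0.0536, DESeq2 adjusted p = 0.0264), named here after its values were seen. Of all transcripts tested by DESeq2, 15.1% were higher and 17.6% lower. Over the 4 libraries, or without normal replicate 1, 4 were lower. Citrate synthase g18190, which uses oxaloacetate, rose from 77.5 ± 5.94 to 583 ± 12.3 CPM (log2 fold change 2.91, SE 0.10, adjusted p = 0.000309 by edgeR), and was the only tested TCA cycle transcript with a larger value than g1833. It is isoform 1 of the assembled gene of which g18191 is isoform 2. g18191 went the other way, from 161 ± 30.7 to 110 ± 4.77 CPM. As for g1832 and g1833, the level of each isoform alone is uncertain. The aconitase g8774 rose from 644 ± 23.5 to 1604 ± 30.4 CPM (log2 fold change 1.32, SE 0.070, adjusted p = 0.000526 by edgeR). Without a mixotrophic replicate 9 to 10 of the list were higher by edgeR.

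The pattern of g1832 and g1833 over the libraries was shared by many transcripts, since 875 of 10351 candidates correlated with it at Pearson r over 0.95 across the 6 libraries. These points share the split into 2 conditions, and the value is a description. Likeness was measured as the root mean square difference of log2 CPM centred on each transcript's mean, which was 0.0559 between the isoforms themselves. By this measure the nearest with a functional BIN were g16178, placed with copper and flavone oxidases (0.132), g4555, the alpha subunit of succinyl-CoA ligase of the TCA cycle (0.186), and g3766, the glyoxysomal malate dehydrogenase (0.211). Next were g12450, an AAA-type ATPase (0.211), citrate synthase g18190 (0.211), g15299 of pre-rRNA processing (0.252), g15729 of the heme redox BIN (0.252), and g17796, a mitochondrial elongation factor G (0.261). Of these 8, 3 belong to the TCA or glyoxylate cycle lists already described, which hold 31 and 17 of the 12318 transcripts tested. Transcripts without an assigned BIN were passed over. Of the 8 nearest in any BIN, only 1 had an assigned BIN, and those named here ranked from 3 to 22. g16178 went from 33.7 ± 3.03 to 181 ± 8.93 CPM and g4555 from 93.9 ± 17.8 to 435 ± 13.8 CPM. With Pearson's r as the measure, 1 of the 8 was still among the nearest 8, so the choice of names depends on the measure.

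**Figure D5:**
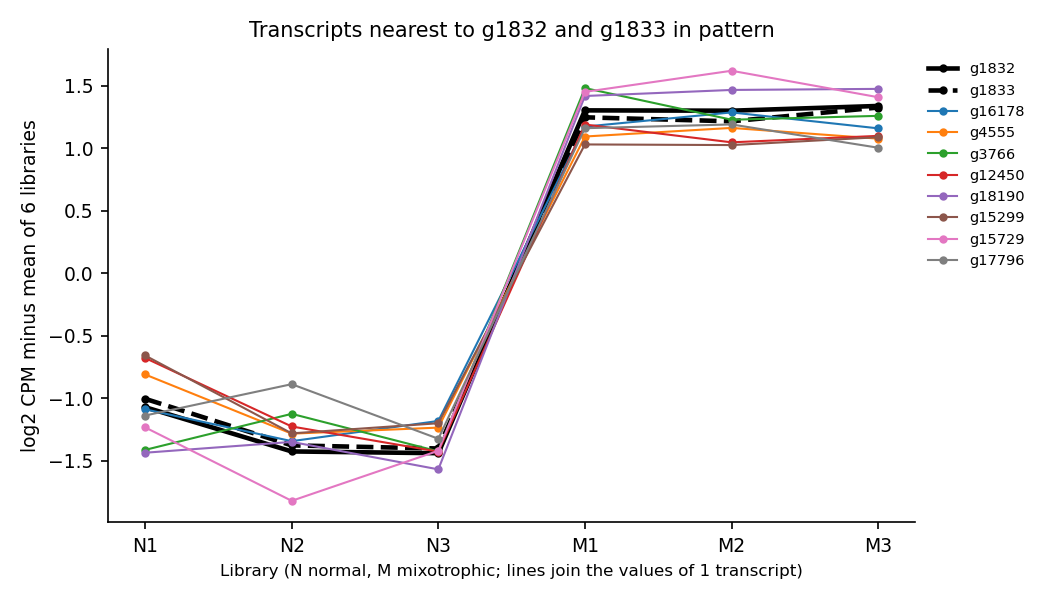
Log2 CPM minus its mean over the 6 libraries for g1832 and g1833 (thick black lines) and the 8 transcripts with a functional BIN nearest to them (thin lines), lines joining the values of 1 transcript across libraries that have no order. All 10 lie below 0 in the normal and above 0 in the mixotrophic libraries.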

How the data were processed

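By the labels, RNA was sequenced from 3 normal and 3 mixotrophic cultures. The study's own list of reads per library holds fewer libraries per condition than the 3 that its caption names. Following the study's methods, the authors assembled pooled reads with Trinity 2.0.6, predicted coding transcripts with AUGUSTUS 2.5.5, assigned MapMan BINs with Mercator, and aligned and counted reads with Subread and featureCounts at default settings. The labels name BWA and DESeq2, without a version. Per transcript, the deposited table gives whole, unscaled read counts. Columns and tables of the authors' own comparisons (direction, fold changes, p-values and enrichments) were not used. 711 descriptions are removed in the copy used, so enzymes around phosphoenolpyruvate were taken by BIN, and those named in the description alone were an added alternative, chosen after seeing the data. A transcript was tied to its component by its contig name.

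Counts were tested in R 4.3.3 with edgeR 4.0.16 (TMM scaling, filterByExpr with a minimum count of 10, glmQLFit, two-sided glmQLFTest), without covariates. Adjusted p-values follow Benjamini and Hochberg over all transcripts tested, and CPM uses the TMM-scaled total. The standard error of a log2 fold change was taken as its size over the square root of F. Likeness used log2 CPM with a prior count of 2, among transcripts with a mean of at least 3. The members and lists were chosen with earlier results of these data known. Named were all PEPCK transcripts and the tested ones of the gluconeogenesis BIN. Up to 2 higher and 2 lower transcripts with the smallest adjusted p of each enzyme or list, and the 8 transcripts nearest in pattern with an assigned BIN, were named too. Alternatives were RLE and upper quartile scaling, other filters, DESeq2 1.42.0, replicates 2 and 3 only, the replicate block, leaving out each library, and counts summed per component.

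Depth was 2535461 to 4444858 reads per library, and 3 reads correspond to 0.648 to 1.25 CPM. The methods describe a pre-culture divided between the conditions, repeated in triplicate, but not which libraries shared one. Deviations from the group means correlated between same-numbered libraries at 0.703, 0.625 and 0.544. Those of normal replicate 2 and mixotrophic replicate 3 correlated at 0.683, and of normal replicate 3 and mixotrophic replicate 2 at 0.514. Deviations within a group cancel out and replicate 1 stood apart in both conditions, so the values of replicates 2 and 3 follow largely from it. The values of replicates 2 and 3 do not show a pairing by number. For replicate 1, the root mean square difference in log2 level between the conditions was 0.906. That is less than the difference of normal replicate 1 from the other normal libraries (1.40 and 1.29). Whether both replicate 1 libraries shared a pre-culture was not tested. A fit with the replicate number as a block is given as an alternative to the unpaired fit used for the calls. The common coefficient of variation was 35.5% over all 6 libraries, 25.5% with the block and 4.64% over replicates 2 and 3. The counts do not show how separate replicates 2 and 3 were as cultures, and adjusted p-values over these libraries rest on that. Sequences were not used here.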

Additional observations from a re-analysis of the deposited data

How the results depend on the processing

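g1832 and g1833 kept their direction and lay between 2.56 and 2.72 and between 2.44 and 2.62 on the log2 scale when a library was left out. The share of g1832 moved by less than its spread. Over replicates 2 and 3 only, counts of higher and lower transcripts became 3549 and 3593 for all tested (1633 and 1874 over all 6), 20 higher for the enzymes around phosphoenolpyruvate, 21 higher for glycolysis and 4 lower for the TCA cycle. With the replicate block 1 gluconeogenesis transcript was lower in place of 4. Beside the calls given in the report for g15195, g15197, g10307 and g10398, the block changed no other call of a named transcript. Summed per component, 4 were higher in gluconeogenesis, 5 around phosphoenolpyruvate and 10 in the TCA cycle, and 9 lower in glycolysis (1129 higher and 1316 lower over all). DESeq2 gave 8 higher in glycolysis and 1 lower in the TCA cycle, and a minimum of 10 counts in every library 8 higher in glycolysis. By Pearson's r 1 of the 8 nearest transcripts remained. Left-out libraries moved g9466 (0.23 over all 6) within -0.088 to 0.56 on the log2 scale, reversed without normal replicate 1 (-0.0545) or mixotrophic replicate 3. They moved g6256 (-0.14) within -0.48 to 0.054, with the sign reversed if normal replicate 2 (0.036) or 3 was left out.

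Leaving out a library gave 641 to 3476 higher and 668 to 3527 lower transcripts in all, 6 to 9 and 0 to 6 in gluconeogenesis, 3 to 20 and 2 to 6 around phosphoenolpyruvate, 2 to 21 and 8 to 26 in glycolysis, and 9 to 19 and 0 to 4 in the TCA cycle. The high ends came without normal replicate 1. g9466, g9467 and g15196 had at most 23 reads in a library, so few reads lie behind their values.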
